A study of Homo sapiens with 9 samples.

Results

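The fibroblast growth factor (FGF) genes described here are 5 ligands (FGF1, FGF2, FGF5, FGF7 and FGF18) and 5 receptors (FGFR1, FGFR2, FGFR3, FGFR4 and the kinase-lacking FGFRL1), 10 of the 18417 genes with a value. They were chosen as a family by name, and each is represented by the brightest, on average, of the probes that carry its symbol and no other. RNA was measured on 9 Affymetrix human gene arrays from MDA-MB-231 cells, an established triple negative breast cancer line in permanent culture. SID cells had received 2.5 µM of the SID peptide for 24 h, a decoy with the SIN3-interacting sequence of a MAD protein that competes for the PAH2 domain of the co-repressor SIN3A. SCR cells had received a scrambled version of that peptide and UT cells were left untreated, all grown in the same serum-containing medium, with 3 arrays per group. The time recorded for SCR and UT is also 24 h. The study's methods give 2.5 µM for the scrambled peptide, a dose that the labels do not state. FGF2 and FGF5 had been picked by the study from these same arrays, so the direction of those genes is not independent evidence.

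FGF ligands are secreted proteins that bind, together with heparan sulfate chains on the cell surface, to receptor tyrosine kinases. A bound receptor phosphorylates the adaptor FRS2 and drives the RAS-MAPK and PI3K-AKT branches, and the cell answers with feedback inhibitors such as the Sprouty proteins and MAPK phosphatases. FGF1 can bind every FGF receptor, FGF2 prefers the forms of the receptors that mesenchymal cells splice, and FGF7 binds the form of FGFR2 that epithelial cells splice. FGFRL1 binds ligand and heparin but has no kinase domain. In breast tumours, FGFR1 and FGFR2 are known as genes that can be amplified or act as risk loci, and MDA-MB-231 is known as a mesenchymal-like line.

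The stretches just upstream of the annotated starts of the 4 genes on which the comparisons below turn are shown because the treated cells received a decoy against a co-repressor that DNA-binding factors bring to promoters. They come from RefSeq (build GRCh38.p14), read 5′ to 3′ on the strand of the gene, and stop before the transcribed bases. The FGF1 piece lies at chr5:142698071-142698320 on the minus strand, the FGF2 piece at chr4:122826581-122826681 on the plus strand, the FGF5 piece at chr4:80266338-80266587 on the plus strand and the FGFR2 piece at chr10:121598459-121598694 on the minus strand. Matches to the motifs named in the next paragraph would stand in capitals.
FGF1: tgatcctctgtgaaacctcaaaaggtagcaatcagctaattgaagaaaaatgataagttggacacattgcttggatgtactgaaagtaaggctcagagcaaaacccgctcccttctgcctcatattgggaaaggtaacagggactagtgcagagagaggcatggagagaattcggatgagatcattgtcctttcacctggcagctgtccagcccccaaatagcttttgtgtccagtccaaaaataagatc
FGF2: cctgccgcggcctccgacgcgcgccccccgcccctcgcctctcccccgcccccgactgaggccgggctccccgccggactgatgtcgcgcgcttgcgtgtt
FGF5: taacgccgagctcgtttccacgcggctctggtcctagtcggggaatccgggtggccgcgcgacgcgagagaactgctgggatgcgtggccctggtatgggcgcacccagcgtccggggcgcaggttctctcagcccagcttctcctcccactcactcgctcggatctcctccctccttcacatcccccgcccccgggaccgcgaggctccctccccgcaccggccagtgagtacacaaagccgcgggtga
FGFR2: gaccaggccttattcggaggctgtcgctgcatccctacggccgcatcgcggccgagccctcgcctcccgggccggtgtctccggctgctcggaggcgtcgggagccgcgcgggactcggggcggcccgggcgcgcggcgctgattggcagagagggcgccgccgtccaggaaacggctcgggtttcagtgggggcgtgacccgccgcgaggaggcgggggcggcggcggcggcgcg

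The 4 motifs searched on both strands were TGTCA, the core bound by the SIN3A partner TGIF1, CACGTG, the E-box of MAX and its MAD partners, CCTTTG, a core bound by TCF/LEF factors of the WNT pathway, and TGACTCA, an AP-1 site. None of them was found in the printed pieces, which is why they hold no capitals, nor in the rest of the 300 base windows around these starts. TGTCA was present in 38.9% of all 35116 promoter windows of that length, CACGTG in 7.26%, CCTTTG in 17.9% and TGACTCA in 4.95%. Windows were found for 9 of the 10 genes, all except FGFR1. FGF1 has 4 annotated starts, of which 3 windows held TGTCA and 1 held TGACTCA, and of the 5 FGFR2 windows 1 held TGTCA and 1 held CCTTTG. The FGFRL1 window held 1 match to CACGTG and 2 to CCTTTG, the FGF7 and FGF18 windows 1 match to CCTTTG each, and of the 2 FGFR4 windows 1 held CACGTG and 1 held CCTTTG. The upstream piece of FGF1 had a GC content of 44.8%, against 80.2% for FGF2, 68.8% for FGF5 and 78.0% for FGFR2. A match or its absence describes letters alone, and binding was not measured.

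Before any comparison of treatments, the arrays fell apart in a way that the groups do not explain. SID and SCR of replicates 1 and 2 (4 arrays) correlated with each other at 0.963 or more over all probes. The other 5 arrays (all UT, and SID and SCR of replicate 3) did so at 0.9925 or more. No pair across the sets exceeded 0.9293. The labelled line was checked by its markers. The mean log2 level of 8 mesenchymal markers was 12.02 to 12.50 on the 4 arrays and 10.8 to 10.9 on the other 5, and that of 8 epithelial markers was 10.1 to 11.4 on the 4 arrays and 9.0 to 9.1 on the other 5. Vimentin, the defining mesenchymal filament, was at 12.75 or higher on all 9 arrays. Some other listed markers split by set. EPCAM was at 9.74 to 10.94 on the 4 arrays and 6.14 to 6.87 on the other 5. For AXL these ranges were 12.95 to 13.31 and 9.95 to 10.14, and for KRT19 11.41 to 11.97 and 7.12 to 7.82. KRT8 went the other way, at 12.75 to 13.57 on the 4 arrays and 13.68 to 13.98 on the other 5. The adhesion molecule CDH1, which the line is known to lack, was at 10.13 and 11.08 on SCR replicates 1 and 2 and at 7.26 or lower elsewhere. ESR1, the oestrogen receptor, stayed between 6.76 and 7.23. As every UT array belongs to the larger set, for replicates 1 and 2 a peptide and the array set cannot be told apart from UT, and values of replicate 3 alone are given beside those comparisons.

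Across these sets, 8 of the 10 FGF genes did not overlap. FGF1, FGF5 and FGFR1 lay above on the 4 arrays (16.6% of all 19460 tested probes did), and FGF2, FGF18, FGFR2, FGFR3 and FGFR4 lay below (15.4% of probes did). The mean difference was widest for FGFR2 at -3.87 on the log2 scale, followed by FGFR1 at 2.41, FGF5 at 2.37 and FGF2 at -1.54. FGF7 and FGFRL1 overlapped. For FGF1 the margin was narrow, with SID replicate 1 at 6.215 and SCR replicate 3 at 6.205. These sets were found in the data, so the differences are a description with no test.

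**Figure D1:**
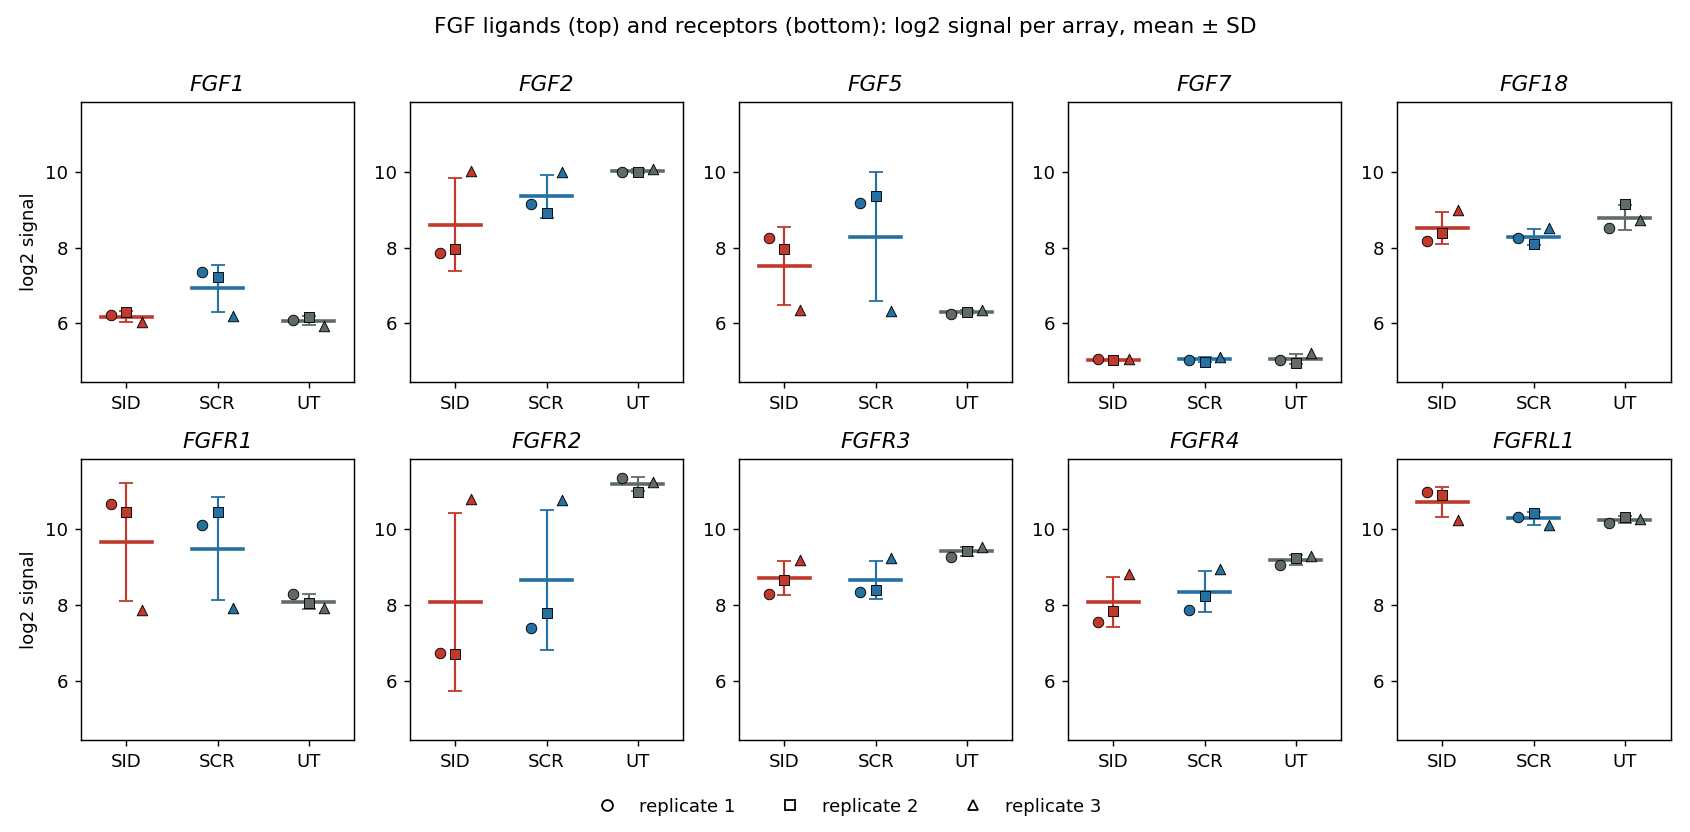
Log2 signal (y axis) of each FGF gene on every array in SID, SCR and UT cells, with ligands above and receptors below. Points are arrays with the replicate number as marker, horizontal lines are group means and bars are SD (n = 3). Replicate 3 of SID and SCR lies near the UT arrays for FGF2, FGF5, FGFR1 and FGFR2.

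The question behind SID against SCR is what the SIN3-binding sequence does beyond the presence of a peptide. With all 9 arrays in the limma fit, no FGF gene passed the test (a difference of over 1 on the log2 scale, in either direction, with an adjusted p of less than 0.05), nor did any of the 19460 probes (0%). Before adjustment, 1 of the 10 FGF genes and 1474 probes had a p of less than 0.05 (378 with the methods' t-test). No FGF gene had SID arrays entirely above (4.01% of probes) or below (1.65%) the SCR arrays. When the 6 arrays of replicates 1 and 2 were fitted alone, 3 of the 10 FGF genes were lower in SID than in SCR (3.23% of probes were) and 0 were higher (1.92% of probes were). These were the ligands FGF1, FGF2 and FGF5, each with a log2 difference slightly past the limit. On the single pair of replicate 3 their SID minus SCR differences were -0.17, 0.029 and 0.022.

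FGF2 (basic FGF, a secreted mitogen that lacks a signal peptide) was measured at 7.85, 7.96 and 10.02 on SID replicates 1, 2 and 3, against 9.15, 8.92 and 9.99 on the SCR arrays and 9.99, 10.00 and 10.07 on the UT arrays. The SID and SCR arrays of replicate 3 lay inside the range of UT, and within replicates 1 and 2 the SID arrays lay below SCR and SCR below UT. The mean was 8.61 ± 1.22 in SID, 9.35 ± 0.56 in SCR and 10.02 ± 0.05 in UT cells (SD, n = 3 each). Over all arrays SID minus SCR was -0.74 (SE 0.57, limma adjusted p = 0.787). In replicates 1 and 2 alone it was -1.13 (SE 0.11, limma adjusted p = 0.00250), or 2.19-fold lower in SID. In the order SID, SCR, UT, each group overlapped its neighbour when all arrays were kept.

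FGF5, known in mammals as an inhibitor of hair growth and in cultured cells as a transforming mitogen, showed the opposite order against UT. Its log2 signal was 8.25, 7.96 and 6.35 on the SID arrays, against 9.17, 9.37 and 6.33 on the SCR arrays and 6.24, 6.30 and 6.35 on the UT arrays. Replicate 3 of both peptides lay inside the range of UT, while the other SID arrays were above UT and the other SCR arrays higher still. SID averaged 7.52 ± 1.03, SCR 8.29 ± 1.70 and UT 6.30 ± 0.06 (SD, n = 3 each). SID minus SCR was -0.77 over all arrays (SE 0.84, limma adjusted p = 0.882) and -1.16 in replicates 1 and 2 alone (SE 0.13, limma adjusted p = 0.00384), a 2.23-fold lower signal in SID. Against UT the same SID arrays were 1.84 higher (SE 0.13, limma adjusted p = 0.000142). That contrast runs along the array sets found in the data, so its p-value is no independent support. With all 9 arrays the limma adjusted p of SID minus UT was 0.468. The 5 low arrays (all UT, and SID and SCR of replicate 3) were in the low range of signal that the gauge in the next paragraph describes, so that differences between or against them are limited by low signal.

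FGF1 (acidic FGF) was at 6.22, 6.30 and 6.03 on the SID arrays, against 7.34, 7.23 and 6.21 on the SCR arrays and 6.10, 6.18 and 5.94 on the UT arrays. The SCR arrays of replicates 1 and 2 were the high ones, and the SID arrays overlapped UT. SID minus SCR was -0.74 over all arrays (SE 0.28, limma adjusted p = 0.657), and FGF1 was the gene counted above with a p of less than 0.05 before adjustment. In replicates 1 and 2 alone it was -1.03 (SE 0.10, limma adjusted p = 0.00228). SID minus UT there was 0.12 (95% confidence interval -0.12 to 0.35). Low-signal limits apply to this gene. As a gauge, 95% of 381 olfactory receptor probes, for genes not expected in this line, averaged 7.06 or less, and FGF1 was above that level on 2 arrays, SCR replicates 1 and 2, alone.

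FGF7 and FGF18 did not separate SID from SCR. FGF7, the keratinocyte growth factor, lay between 4.94 and 5.21 on all 9 arrays, within the olfactory receptor range throughout, and SID minus SCR was -0.0038 (95% confidence interval -0.20 to 0.19). The probe annotation lists FGF7 together with the pseudogenes FGF7P3 and FGF7P6 at 6 other probes, which were not used, and whether the FGF7 probe also takes up RNA of such copies was not tested. FGF18, a ligand known for its part in bone and lung growth, was at 8.18, 8.39 and 8.99 on the SID arrays, against 8.26, 8.08 and 8.51 on the SCR arrays and 8.51, 9.14 and 8.74 on the UT arrays. Its SID minus SCR difference was 0.24 (95% confidence interval -0.34 to 0.81), and all 3 groups overlapped.

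Among the receptors, FGFR2 and FGFRL1 came closest to a call in SID against SCR. FGFR2, the receptor for FGF7 in its epithelial form, was at 6.75, 6.73 and 10.80 on the SID arrays, against 7.39, 7.80 and 10.78 on the SCR arrays and 11.35, 10.99 and 11.24 on the UT arrays. In replicates 1 and 2 its log2 difference SID minus SCR was -0.86 (SE 0.18, limma adjusted p = 0.0199), under the fold limit, and on replicate 3 it was 0.021. Both low SID arrays were in the olfactory receptor range. FGFRL1 was at 11.00, 10.92 and 10.26 on the SID arrays, against 10.34, 10.43 and 10.11 on the SCR arrays and 10.16, 10.34 and 10.27 on the UT arrays. Its difference of 0.57 in replicates 1 and 2 (SE 0.10, limma adjusted p = 0.0141) was also under the fold limit, and SID was above SCR in 3 of 3 replicates, by 0.66, 0.48 and 0.15. No receptor was called in this comparison, and the probes do not separate the splice forms that decide which ligand a receptor binds.

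FGFR1, FGFR3 and FGFR4 lay close together in SID and SCR. FGFR1 was at 10.67, 10.47 and 7.88 on the SID arrays, against 10.11, 10.46 and 7.93 on the SCR arrays and 8.30, 8.06 and 7.91 on the UT arrays. In replicates 1 and 2 the SID minus SCR difference was 0.29 for FGFR1 (95% confidence interval -0.091 to 0.66), 0.10 for FGFR3 (-0.23 to 0.44) and -0.35 for FGFR4 (-0.74 to 0.037). These intervals lie within a 2-fold difference in either direction. With all 9 arrays they were wider, from -1.87 to 2.22 for FGFR1, -0.63 to 0.74 for FGFR3 and -1.13 to 0.59 for FGFR4, so that a 2-fold difference of FGFR1 or a 2-fold lower FGFR4 lay inside. FGFR4 was lower in SID in 3 of 3 replicates, with SID minus SCR log2 differences of -0.31, -0.39 and -0.11.

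**Figure D2:**
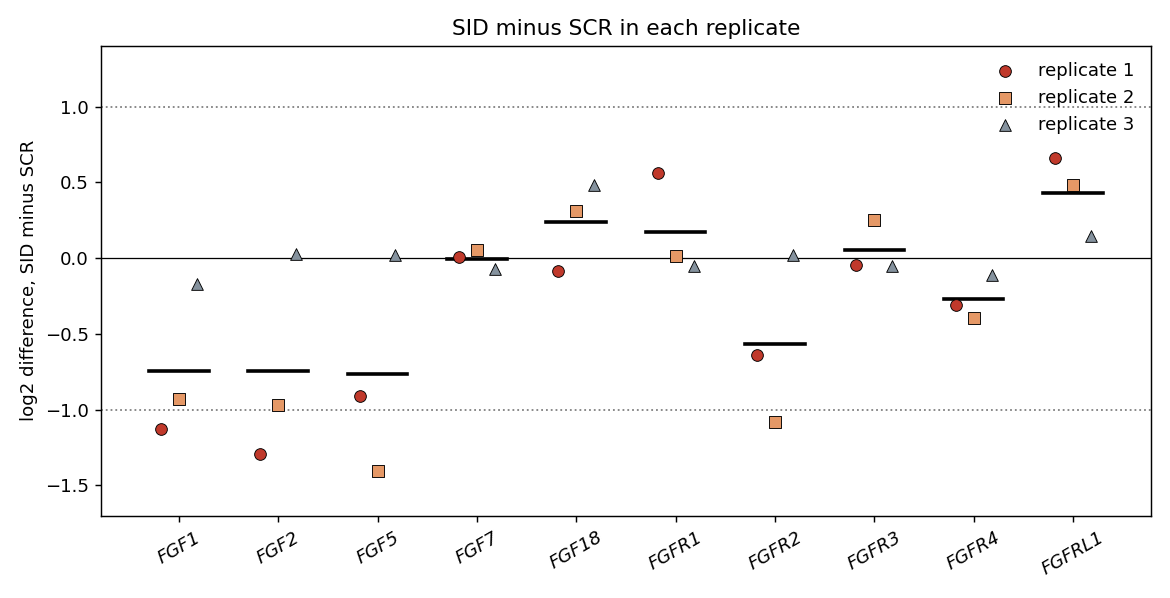
SID minus SCR log2 difference (y axis) of each FGF gene (x axis) in each replicate, with the mean of the 3 as a black line and the fold limit as dotted lines. FGF1, FGF2 and FGF5 lie between -1.41 and -0.91 in replicates 1 and 2 and between -0.17 and 0.029 in replicate 3.

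Other values moved together with these differences in replicates 1 and 2. The epithelial marker list averaged 10.13 and 10.19 on SID replicates 1 and 2, against 10.96 and 11.35 on the SCR arrays of the same numbers. Of its 8 genes, 2 were called lower in SID, where 3.23% of all probes were. These were CDH1 (log2 SID minus SCR -3.45, limma adjusted p = 0.00176) and the transcription factor gene GRHL2 (-2.59, limma adjusted p = 0.00176). None was called higher, CLDN4 and CLDN7 had positive differences (0.62, limma adjusted p = 0.0118, and 0.22, limma adjusted p = 0.470), and the list's median was -0.74. The mesenchymal list averaged 12.07 and 12.02 on those SID arrays and 12.41 and 12.50 on the SCR arrays. SPARC was the 1 mesenchymal marker called, with a SID minus SCR difference of -3.69, and without it the other 7 averaged 12.80 and 12.72 in SID and 12.71 and 12.69 in SCR. Of the 2 measured basal keratinocyte markers, KRT5 was called lower in SID (-2.59, limma adjusted p = 0.00326). KRT14 differed by 0.22 (limma adjusted p = 0.192). None of the 3 hormone receptor markers was called. Fibroblast markers stayed between 6.66 and 7.20 on average on every array. GRHL2 on both SID arrays, and CDH1, SPARC and KRT5 on SID replicate 1, lay in the olfactory receptor range, which limits the size of those differences. The part of these marker levels in the FGF results was not tested.

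The second question is how peptide-treated cells compare with untreated ones, where SID and SCR are set against the same 3 UT arrays. Over all 9 arrays no FGF gene and no probe passed the test in SID minus UT (0%, with 2432 probes at p of less than 0.05 before adjustment in limma and 1715 in the methods' t-test) or in SCR minus UT (0%, with 2811 and 1794). FGFR2, FGFR3 and FGFR4 were nevertheless below every UT array on all SID arrays (3 of 10 genes, against 8.05% of probes below and 10.7% above) and on all SCR arrays (3 of 10 genes, against 12% of probes below). FGF1 was the 1 gene whose SCR arrays all lay above UT (9.52% of probes did). In replicates 1 and 2 alone, FGF5 and FGFR1 were higher in SID than in UT (2 of 10, against 7.12% of probes) and FGF2, FGFR2 and FGFR4 lower (3 of 10, against 6.13%). In SCR, FGF1, FGF5 and FGFR1 were higher than in UT (3 of 10, against 6.81%) and FGFR2 and FGFR4 lower (2 of 10, against 4.79%). In the counts of replicates 1 and 2 the peptides and the array sets cannot be told apart.

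FGFR2 had the widest of these differences. Relative to UT its log2 difference in replicates 1 and 2 was -4.44 in SID (SE 0.18, limma adjusted p = 1.33e-05) and -3.58 in SCR (SE 0.18, limma adjusted p = 3.49e-05), with the SID arrays in the olfactory receptor range, so that the size of their difference is limited by low signal. FGFR1 went the other way, 2.38 higher in SID (SE 0.16, limma adjusted p = 9.52e-05) and 2.10 higher in SCR (SE 0.16, limma adjusted p = 0.000194). These contrasts run along the array sets found in the data, so their p-values are no independent support. With all 9 arrays the limma adjusted p of FGFR2 was 0.388 in SID and 0.375 in SCR against UT. For FGFR1 these values were 0.406 and 0.449. On replicate 3, FGFR1 differed from UT by -0.038 in SID and 0.012 in SCR. FGFR2 was still lower than the UT array of that number, with log2 differences of -0.44 in SID and -0.46 in SCR. Whether the numbers pair UT with the peptides is not known, so the mean of the 3 UT arrays was used too. From that mean, FGFR2 of replicate 3 differed by -0.39 in SID and -0.42 in SCR, against an SD of 0.18 among the UT arrays. FGFR1 differed by -0.22 and -0.17, against an SD of 0.20.

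FGFR3 and FGFR4 had the same pattern on a smaller scale. FGFR3, a receptor known for its role in cartilage, was at 8.30, 8.65 and 9.19 on the SID arrays, against 8.34, 8.40 and 9.24 on the SCR arrays and 9.29, 9.44 and 9.54 on the UT arrays. FGFR4, known in liver as the receptor that FGF19 acts on, was at 7.57, 7.84 and 8.84 on the SID arrays, against 7.88, 8.24 and 8.95 on the SCR arrays and 9.05, 9.24 and 9.31 on the UT arrays. Every peptide array was below every UT array for both genes, and replicate 3 was the nearest to UT. On that replicate FGFR3 differed from the mean of UT by -0.23 in SID and -0.18 in SCR, and FGFR4 by -0.37 in SID and -0.25 in SCR, with an SD among UT arrays of 0.13 for either gene. Against the UT array of that number, the highest UT array of both genes, the values were -0.34 and -0.29 for FGFR3 and -0.47 and -0.36 for FGFR4. Replicate 3 has 1 array per group, so these values carry no test.

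**Figure D3:**
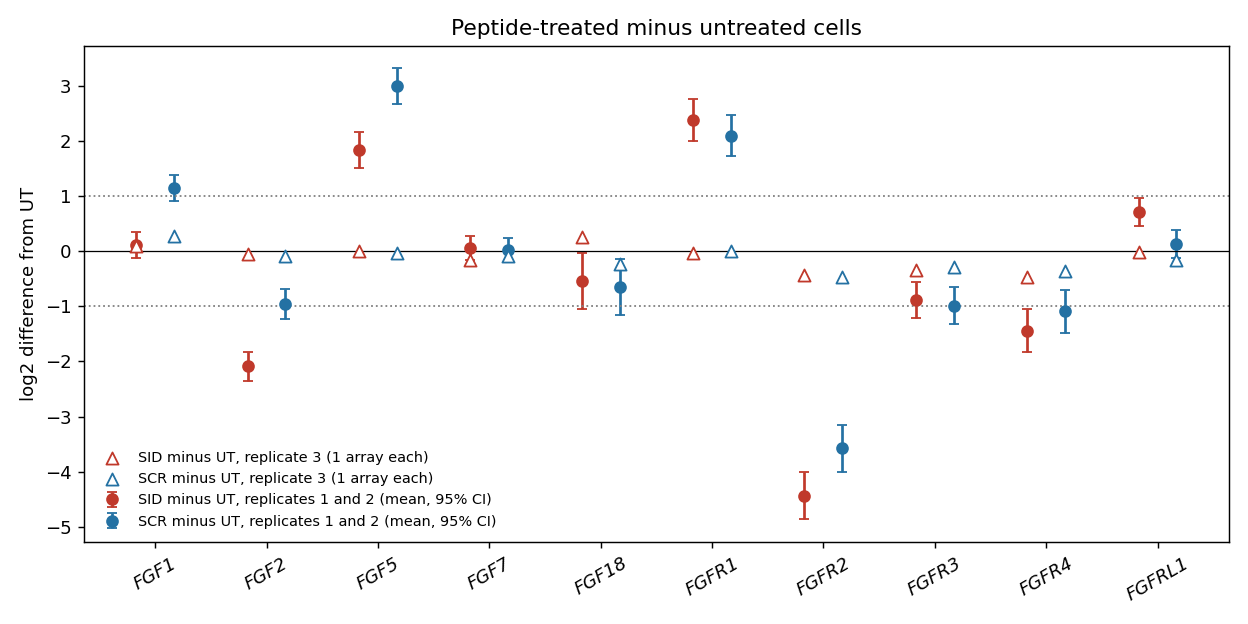
Log2 difference from UT (y axis) of each FGF gene (x axis) in SID and SCR cells. Filled points are means of replicates 1 and 2 with 95% confidence intervals from the fit on 6 arrays, open triangles are the single replicate 3 difference from the UT array of that number, and dotted lines mark the fold limit. FGFR2, FGFR3 and FGFR4 are below 0 for both peptides in both sets, whereas FGF2, FGF5 and FGFR1 of replicate 3 lie between -0.081 and 0.012.

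Beyond the 10 genes, 13 lists of the FGF pathway held 126 genes, of which 110 had a value. With all arrays none was called in SID minus SCR (8 had a p of less than 0.05 before adjustment, beside 1474 of all 19460 probes). In the fit on the 6 arrays, 4 were lower (3.64%, beside 3.23% of all probes) and 1 was higher (0.909%, beside 1.92%), and the median over the 110 genes was 0.12 against 0.039 over all probes. The 5 called genes sit in 4 of the lists. None was called among the other FGF ligands, the klotho co-receptors, the feedback inhibitors, the receptor adaptors or the RAS-MAPK cascade.

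Of the PI3K-AKT branch, 2 of 7 measured genes were called lower in SID, where 3.23% of all probes were. PIK3R3, a regulatory subunit of PI3-kinase, was at 6.70 and 6.49 on SID replicates 1 and 2, against 9.11 and 9.21 on SCR and 9.07 and 8.95 on UT, a SID minus SCR difference of -2.57 (limma adjusted p = 0.000478). Its low values were confined, among the 9 arrays, to those 2. Both lay in the olfactory receptor range, so that the size of the difference is limited by low signal. The study had listed PIK3R3 as lowered by SID from these same arrays. Its direction, and its part in the count of this branch, are therefore not independent evidence. PIK3R1, the main regulatory subunit, was at 9.03 and 8.93 on SID replicates 1 and 2, against 10.12 and 10.01 on SCR. On UT it was at 6.10 and 6.45, and SID minus SCR was -1.08 (limma adjusted p = 0.00488). On replicate 3 alone, SID minus SCR was 0.20 for PIK3R3 and -0.023 for PIK3R1.

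At the cell surface, the heparan sulfate enzyme SULF2, which trims sulfate groups that FGFs bind, was lower in SID. Its signal was 7.36 and 7.41 on SID replicates 1 and 2, against 8.50 and 9.10 on SCR (difference -1.41, limma adjusted p = 0.00573). This was the 1 call among 17 measured enzymes (5.88%, beside 3.23% of all probes called lower). FLRT2, a membrane protein that binds FGF receptors, was at 7.26 and 6.55, against 8.65 and 8.53 on SCR (difference -1.68, limma adjusted p = 0.00606), with SID replicate 2 in the olfactory receptor range. Of the 3 measured FLRT genes it was the 1 called (33.3%, beside 3.23% of all probes). Just under the fold limit stood FGFBP1, a carrier that frees FGF2 from heparan sulfate, with 6.98 and 7.09 in SID against 7.90 and 8.13 in SCR (difference -0.98, limma adjusted p = 0.00386), with SID replicate 1 in that range. FGFBP2 of the same list differed by 0.15 (limma adjusted p = 0.348), with all 9 arrays in the olfactory receptor range. On UT replicates 1 and 2, SULF2 was at 10.54 and 10.57, and FLRT2 at 5.93 and 6.18. On replicate 3 alone, SID minus SCR was 0.17 for SULF2 and -0.0049 for FLRT2. Among the 11 measured heparan sulfate core proteins none was called, and GPC1 and HSPG2 differed by 0.59 and 0.56 (limma adjusted p = 0.0214 and 0.247).

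Downstream, FOSL1, an AP-1 subunit induced by MAPK signalling, was the 1 gene called higher, at 12.26 and 12.59 on SID replicates 1 and 2, against 11.03 and 11.33 on SCR and 9.06 and 9.15 on UT (SID minus SCR 1.24, limma adjusted p = 0.00464). On replicate 3 alone, SID minus SCR of FOSL1 was -0.022. In replicates 1 and 2 the adaptor FRS3 was 0.83 higher (limma adjusted p = 0.00542). GAB1 was lower (SID minus SCR -0.50, limma adjusted p = 0.0489), and both were under the fold limit. ARAF and MAPK3 of the MAPK cascade were higher by 0.70 and 0.69 (limma adjusted p = 0.0448 and 0.0315). The feedback inhibitors SPRY2 and DUSP5 differed by 0.92 and 0.85 (limma adjusted p = 0.00414 and 0.111), and the median of the 13 measured feedback inhibitors was -0.088. Among splice regulators of FGF receptors, QKI was lower under the fold limit (SID minus SCR -0.71, limma adjusted p = 0.0111) and MBNL1 differed by -0.39 (limma adjusted p = 0.0808).

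**Figure D4:**
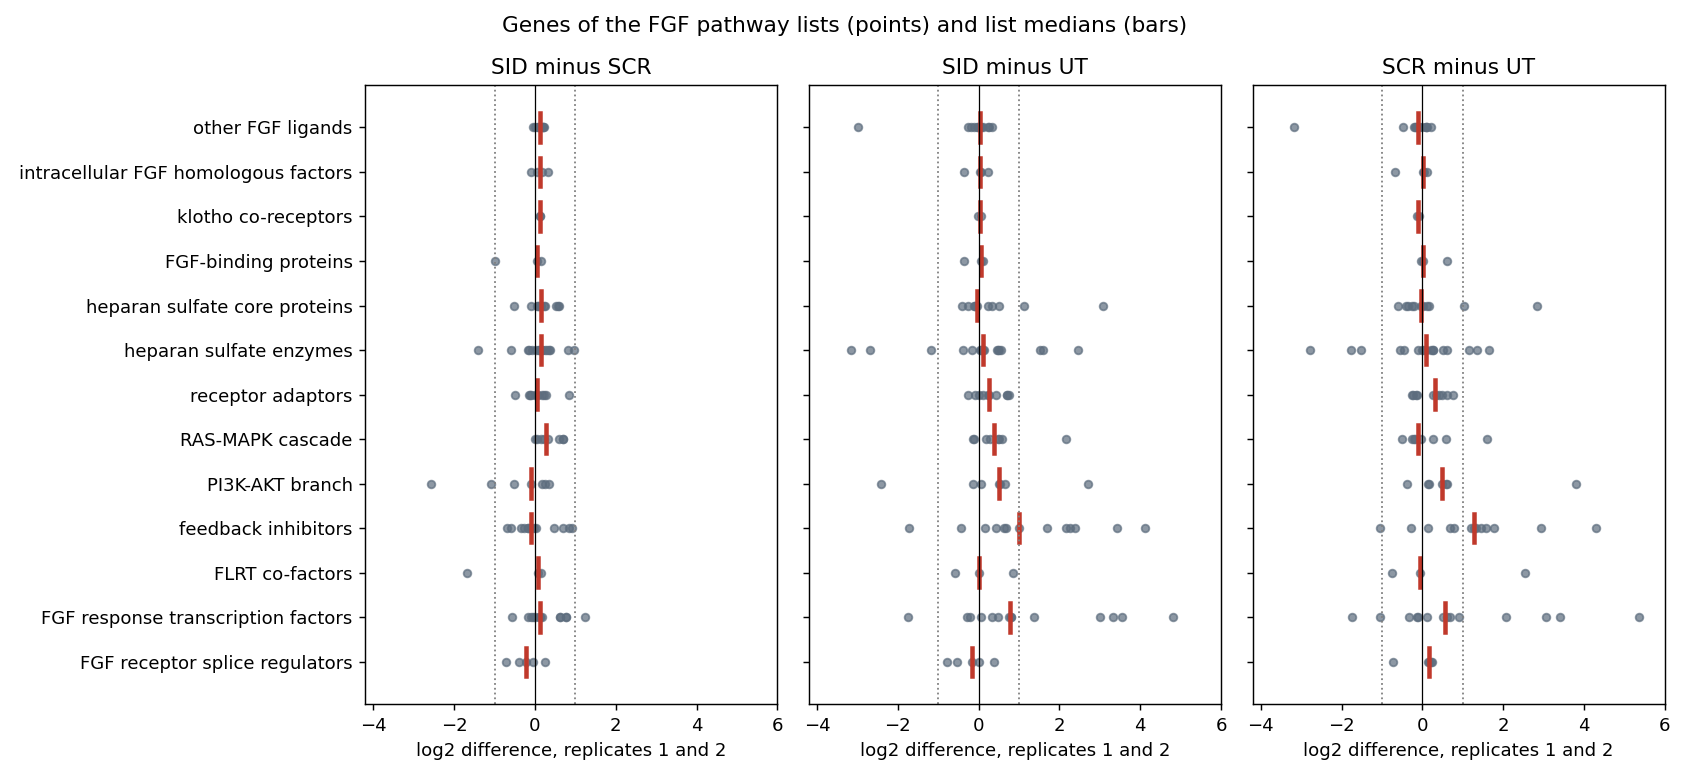
Log2 differences in replicates 1 and 2 (x axis) of the measured genes of the 13 pathway lists (points) with the list medians (bars), for SID minus SCR, SID minus UT and SCR minus UT. SID minus SCR stays within the dotted fold limits for most genes, and the feedback inhibitors have a median of 1.01 in SID minus UT and 1.29 in SCR minus UT.

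Against UT, many more pathway genes were called in replicates 1 and 2, with 19 higher (17.3%, beside 7.12% of all probes) and 7 lower (6.36%, beside 6.13%) in SID and 20 higher (18.2%, beside 6.81%) and 7 lower (6.36%, beside 4.79%) in SCR, none of them with all arrays. The feedback inhibitors were higher in 7 of 13 genes in SID (53.8%) and 8 of 13 in SCR (61.5%), with 1 lower in either, and with medians of 1.01 and 1.29 against 0.022 and -0.0087 over all probes. The following genes were chosen after their values were seen. DUSP6, a phosphatase that switches off ERK, was at 11.73, 11.32 and 7.31 on the SID arrays, against 11.71, 11.70 and 7.30 on the SCR arrays and 7.33, 7.46 and 7.02 on the UT arrays. ETV1, an ETS factor that FGF signalling induces, was at 10.50, 10.06 and 5.36 on the SID arrays, against 10.80, 10.87 and 5.42 on the SCR arrays and 5.38, 5.55 and 5.56 on the UT arrays. Both were high on the 4 arrays on which FGF5 and FGFR1 were high and FGFR2 was low, as were 16.6% of all probes. The list of ETV1 was mixed. Of its 14 measured genes, 5 were called higher and 1 lower in SID, and 4 higher and 2 lower in SCR. FOS was lower than UT by -1.74 in SID and -1.75 in SCR, and MYC by -1.04 in SCR. Whether FGF signalling had a part in these levels was not tested.

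Of the 13 other ligands, FGF9 was the 1 called in either comparison with UT, lower in both (7.69%). Of all probes, 6.13% were called lower in SID and 4.79% in SCR. FGF9, a mitogen first found in glia, was at 5.60, 5.83 and 8.70 on the SID arrays, against 5.47, 5.57 and 8.34 on the SCR arrays and 8.66, 8.73 and 8.72 on the UT arrays, so that its low arrays were the same 4, all in the olfactory receptor range. The mean SID minus SCR difference over the 3 replicates was 0.25 for FGF9 and 0.10 for FGF22, and in replicates 1 and 2 neither was called (limma adjusted p = 0.306 and 0.345). In replicates 1 and 2 the klotho genes KL and KLB differed between SID and SCR by 0.13 each. There FGF12 and FGF13, which stay inside the cell, differed by 0.19 and 0.33, and all were under the fold limit. Over the 3 replicates the means were 0.035 for KL, 0.13 for KLB, 0.12 for FGF12 and 0.18 for FGF13. KL, KLB and FGF12 were in the olfactory receptor range on all 9 arrays.

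The genes whose profile over the 9 arrays lay nearest to FGF2, each centred on its own mean, were SKIC8, MPP7, PUS7, HMGN3 and SIPA1L2, at a root mean square distance of 0.13 to 0.18 on the log2 scale. Nearest to FGF5 were the chemokine gene CXCL1, the receptor tyrosine kinase gene MERTK, CRYBG1, ZNF702P and MB21D2, at 0.16 to 0.19. SID minus SCR of CXCL1 was -1.18, -1.77 and -0.26 in replicates 1, 2 and 3, and that of SKIC8 was -1.22, -1.01 and 0.11. This likeness is a description over 9 arrays that fall into the array sets given above.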

How the data were processed

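The deposited table holds 1 log2 value per transcript cluster and array, as normalized by the authors. The submitters' processing notes name Affymetrix Expression Console, RMA and Transcriptome Analysis Console, with no version. The log2 scale was read from the values (3.75 to 14.94, array medians 7.68 to 7.77), and no sample column was left unused. Such values compress low signals, and the number of arrays limits the precision. The study worked on single probes in ChipInspector, for which these summarized values do not serve. Here a linear model with 1 mean per group was fitted in limma 3.58.1 (R 4.3.3), with moderated variances from eBayes. Tested were 19460 probes with 1 gene symbol of 33297 (1754 had several, 12083 none), with Benjamini-Hochberg adjustment over all of them. Genes were called where the adjusted p was less than 0.05 and the difference, up or down, exceeded 1 on the log2 scale.

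The design text speaks of independent replicates, the study's methods give another number of them, and a table of the study heads SCR replicate 3 with another treatment time than the labels. P-values measure the spread between these arrays. Deviations from the group means of same-numbered SID and SCR arrays correlated at 0.774, 0.575 and 0.791, and with UT at -0.073 to 0.215. Replicate 3 of both peptides sits in the other array set, so these values cannot show that SID and SCR are paired by number. For the same reason they cannot show whether UT is paired with them. Over all probes, SID replicate 1 correlated with SCR replicates 1 and 2 at 0.9762 and 0.9759. For SID replicate 2 these values were 0.9635 and 0.9632. Differences within a replicate follow the labelled numbers. The members, lists, named genes and alternatives were chosen with earlier results of these data known. Named were all 10 members and, in each pathway list, the genes called in SID minus SCR of replicates 1 and 2, or else the 2 with the largest mean difference over the 3 replicates. Other names are marked as chosen after their values were seen, apart from the marker genes, which come from the marker lists. The procedure was tested on simulated data with independent noise. That simulation held no array sets like those seen here, so it does not show how the fit behaves with them. Alternatives were a replicate block, replicates 1 and 2 alone, array weights, quantile normalization, median centring, other filters and fits, the methods' t-test and leaving out each array. Gene positions come from RefSeq (GRCh38.p14), and figures were drawn with matplotlib.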

Additional observations from a re-analysis of the deposited data

How the results depend on the processing

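With all arrays, no probe was called in any comparison, and this held under the replicate block (0 probes, 0 FGF genes and 0 pathway genes in each of the 3 comparisons, and likewise with the SID and SCR arrays alone, a setting added after seeing the data), quantile normalization, median centring, other filters, fits of the compared groups alone, the methods' t-test and no fold limit. Calls appeared where replicate 3 of SID or SCR was left out of a comparison or weighed less. Replicates 1 and 2 alone gave 1002 probes, 3 FGF genes and 5 pathway genes in SID minus SCR, 2578, 5 and 26 in SID minus UT, and 2258, 5 and 27 in SCR minus UT. Array weights gave 761, 2 and 4, then 2389, 6 and 27, then 2116, 6 and 25 in the same order. Leaving out 1 array gave 0 to 648 probes, 0 to 1 FGF genes and 0 to 3 pathway genes in SID minus SCR (the most without SID replicate 3, and 223, 1 and 1 without SCR replicate 3), 0 to 1946, 0 to 4 and 0 to 17 in SID minus UT (most without SID replicate 3), and 0 to 1071, 0 to 3 and 0 to 6 in SCR minus UT (most without SCR replicate 3). The cause was not tested.

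Some directions turned. On replicate 3 alone, with no test, SID minus SCR was 0.029 for FGF2 and 0.022 for FGF5, SID minus UT -0.0048 for FGF5 and -0.038 for FGFR1, and SCR minus UT -0.027 for FGF5, each called the other way in replicates 1 and 2. For FGF7, SID minus SCR became 0.030 in replicates 1 and 2, 0.012 with array weights, 0.0064 with quantile normalization and 0.021 with centring, SID minus UT 0.056 in replicates 1 and 2, 0.036 with quantile normalization and 0.019 with centring, and SCR minus UT 0.026 in replicates 1 and 2 and 0.030 with quantile normalization. With array weights SID minus SCR was -0.0025 for FGF18 and -0.0072 for FGFR3. Without single arrays, SID minus SCR ranged from -0.038 to 0.033 for FGF7, -0.61 to 1.07 for FGFR1, -1.92 to 0.50 for FGFR2, -0.19 to 0.34 for FGFR3 and -0.65 to 0.024 for FGFR4. SID minus UT of FGF7 ranged from -0.073 to 0.059, and SCR minus UT from -0.070 to 0.063 for FGF7 and -0.034 to 0.13 for FGFRL1. FGF1, FGF2 and FGF5 kept a negative SID minus SCR in every fit run, and on replicate 3 alone FGF1 did (-0.17) while FGF2 and FGF5 did not. A mean over all probes of a gene was not run, as each of the 10 genes has 1 probe with a single symbol.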
